A study of Mus musculus with 28 samples.

Results

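Fos, Fosb, Jun, Junb, Jund, Egr1, Egr2, Egr3, Nr4a1 and Nr4a3 are immediate early genes, and their mRNA was followed here across 3 genotypes and 2 stages of mouse thymocytes. They were taken by gene symbol and not by a cut on measured values, although earlier results of these data were known. They make up 10 of the 24421 symbols in the count table. All 10 were among the 14371 genes that passed the filter on low counts. Immediate early genes are transcribed within minutes of a signal, from transcription factors that are already present in the cell and wait to be phosphorylated. Fos and Jun proteins pair through leucine zippers to form AP-1, Egr proteins are zinc finger factors, and Nr4a proteins are orphan nuclear receptors. In thymocytes they are known as early targets of pre-T-cell-receptor and T-cell-receptor signalling through ERK and calcium, and the same genes are induced by stress and by the handling of cells.

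RNA was sequenced from thymocytes sorted as DN2/3 or DN4, successive stages that carry neither CD4 nor CD8 on the surface, although the labels also name the cells CD4 T cells. The Ldb1-KO group (labelled Lmo2tg; Ldb1-KO) carried an Lmo2 transgene and a deletion of Ldb1, the Lmo2tg group carried the same transgene with Ldb1 intact, and the wild type was C57BL/6. Each stage had 5 Ldb1-KO, 5 Lmo2tg and 4 wild-type libraries, 28 in all. Lmo2 is a LIM-only adaptor and T-cell leukaemia oncogene, and Ldb1 is the cofactor that joins it to DNA-binding partners. Both transgenic groups thus share the transgene, and Ldb1-KO against Lmo2tg is the comparison that varies Ldb1. The growth protocol names Lck-Cre, Rag1-Cre and IL-7Ra-Cre. The sources used here do not give which of them acted in each Ldb1-KO sample, the promoter of the transgene or the ages of the mice. The design text counts 4 Ldb1-KO replicates, and the 5 of the sample labels were followed. The labels do not say whether replicates were separate animals, and p-values therefore cover the spread of these libraries, which may be technical.

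The promoters of 6 of the genes are shown because they carry the element that recurs in this set. The sequences are RefSeq promoter windows on GRCm38.p6, printed 5′ to 3′ on the gene's strand from 250 bases before the start site to the last base before it, except that Fosb ends at -7 and Nr4a3 at -153. Capitals mark TGACG, the core of the cyclic AMP response element that CREB and ATF factors read, on either strand (CGTCA when it lies on the other strand), and the CArG box, the element of serum response factor. The stretches are Fos at chr12:85473640-85473889 (plus strand), Fosb at chr7:19310052-19310295 (minus strand), Junb at chr8:84978749-84978998 (minus strand), the third of the RefSeq windows of Egr2 at chr10:67537619-67537868 (plus strand), Nr4a1 at chr15:101266596-101266845 (plus strand) and the first part of the Nr4a3 window at chr4:48045055-48045152 (plus strand).
Fos: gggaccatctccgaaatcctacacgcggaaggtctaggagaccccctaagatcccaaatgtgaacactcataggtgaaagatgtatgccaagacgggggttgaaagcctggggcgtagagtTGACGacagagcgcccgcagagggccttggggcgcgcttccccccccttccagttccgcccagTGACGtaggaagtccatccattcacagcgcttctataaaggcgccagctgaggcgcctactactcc
Fosb: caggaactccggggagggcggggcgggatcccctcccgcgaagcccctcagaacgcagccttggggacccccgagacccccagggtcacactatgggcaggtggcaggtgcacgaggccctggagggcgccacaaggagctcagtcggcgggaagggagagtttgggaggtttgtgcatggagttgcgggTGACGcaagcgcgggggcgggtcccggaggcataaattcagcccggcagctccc
Junb: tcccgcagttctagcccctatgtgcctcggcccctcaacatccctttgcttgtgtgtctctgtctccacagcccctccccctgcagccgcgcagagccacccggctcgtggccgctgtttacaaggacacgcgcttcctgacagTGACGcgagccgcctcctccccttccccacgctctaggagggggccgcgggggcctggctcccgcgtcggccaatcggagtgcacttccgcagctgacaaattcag
Egr2: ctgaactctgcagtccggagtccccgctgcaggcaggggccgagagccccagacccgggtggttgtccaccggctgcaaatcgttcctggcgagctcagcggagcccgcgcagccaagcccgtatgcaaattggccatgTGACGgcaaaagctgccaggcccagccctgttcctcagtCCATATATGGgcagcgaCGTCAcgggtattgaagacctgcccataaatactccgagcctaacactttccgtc
Nr4a1: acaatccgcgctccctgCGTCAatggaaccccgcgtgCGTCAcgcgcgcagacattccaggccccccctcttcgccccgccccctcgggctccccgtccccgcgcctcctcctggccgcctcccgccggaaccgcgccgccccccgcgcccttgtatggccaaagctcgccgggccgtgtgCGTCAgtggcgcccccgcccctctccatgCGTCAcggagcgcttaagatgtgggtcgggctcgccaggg
Nr4a3: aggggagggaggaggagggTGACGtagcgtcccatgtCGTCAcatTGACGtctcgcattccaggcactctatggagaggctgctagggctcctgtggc

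Windows from 250 bases before to 50 bases after the start site were searched for 8 of the 10 genes, all but Egr1 and Egr3. For Jund the RefSeq stretch before the start site, chr8:70697489-70697738, lies upstream of the GENCODE start of the gene at 70698949. A missing match there does not describe the GENCODE start. TGACG lay in 6 of the 8 genes' windows, those printed above, and in 23% of the 27025 genes in the table. Fos held it at -129 to -125 and at -66 to -62 from the start site, Fosb at -60 to -56 and Junb at -106 to -102. Egr2 also held a CArG box, CCATATATGG at -72 to -63, which made it 1 of 8 genes against 1.81% of all genes. Egr2 was searched in 5 windows, while the 27025 genes had 32851 windows. Its TGACG and CArG matches thus had more chances than those of most genes. The full cyclic AMP response element TGACGTCA, which contains TGACG, was in none of the 8 windows (2.03% of all genes). The AP-1 element TGANTCA (8.97% of all genes), the Egr element GCGTGGGCG (0.707%) and the Nr4a element AAAGGTCA (1.7%) were also in none, all searched on both strands. TATAAA was in the windows of Fos and Junb, 2 of 8, against 15.7% of all genes. In Fos it lay at -33 to -28, and in Junb at 0 to 5, not before the start site and outside the printed stretch. A match describes the letters of a window only.

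Library totals ran from 28.1 to 106.9 M counts per library. Replicates 4 and 5 had the lowest totals of each transgenic group, from 28.1 to 44.9 M, and wild-type libraries had at least 56 M. In DN4 cells Lmo2 averaged 45.4 ± 6.66 CPM (counts per M, TMM-scaled; SD, n = 5) in Ldb1-KO, 45.1 ± 13.5 CPM in Lmo2tg (n = 5) and 0.0778 ± 0.0708 CPM in wild type (n = 4). Ldb1 averaged 25.7 ± 19.3 CPM in Ldb1-KO, 345 ± 72.2 CPM in Lmo2tg and 358 ± 18 CPM in wild type DN4 cells, and 98.1 ± 26.9, 397 ± 58 and 511 ± 39.5 CPM in DN2/3 cells. Il2ra, the CD25 chain that defines DN2/3, averaged 44.8 ± 18.6, 71.1 ± 36.4 and 39.6 ± 12.2 CPM in DN4 cells of the same 3 genotypes, against 1396 ± 343, 779 ± 159 and 1512 ± 140.3 CPM in DN2/3 cells. Cd4 mRNA averaged 109 ± 127 and 113 ± 174 CPM in Ldb1-KO and Lmo2tg DN4 cells, against 6.33 ± 3.78 CPM in wild-type DN4 cells, although the gate is CD4-negative. Wild-type libraries carry names of another pattern than the transgenic libraries, so genotype and library series cannot be told apart in any comparison with wild type.

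Per kilobase of exon, the Jun genes and Fos stood highest in every group but Lmo2tg DN4, where the mean of Nr4a1 was above that of Jun, and Egr2, Egr3 and Nr4a3 were lowest in wild type. In wild-type DN2/3 cells Jun had 179 CPM per kb, Jund 108, Junb 78.6 and Fos 54 CPM per kb. Nr4a1, Egr1 and Fosb had 8.21, 8.12 and 6.71 CPM per kb, and Egr2, Egr3 and Nr4a3 had 0.72, 0.318 and 0.221 CPM per kb. The order of the 6 groups differed between the families. Group means of Fos, Fosb, Jun, Junb and Egr1 were highest in Ldb1-KO DN2/3 cells, that of Jund in Lmo2tg DN2/3 cells, and those of Egr2, Egr3, Nr4a1 and Nr4a3 in Lmo2tg DN4 cells. The lowest mean was in wild-type DN4 cells for Fos, Fosb, Jun, Junb, Jund, Egr1 and Egr2, in wild-type DN2/3 cells for Nr4a1 and Nr4a3, and in Lmo2tg DN2/3 cells for Egr3. Most neighbours in these orders overlapped in their samples. The neighbours without overlap were Ldb1-KO DN4 over wild-type DN4 for Junb, Ldb1-KO DN4 over Ldb1-KO DN2/3 for Egr2 and Egr3, and wild-type DN4 over Lmo2tg DN2/3 for Egr3.

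**Figure D1:**
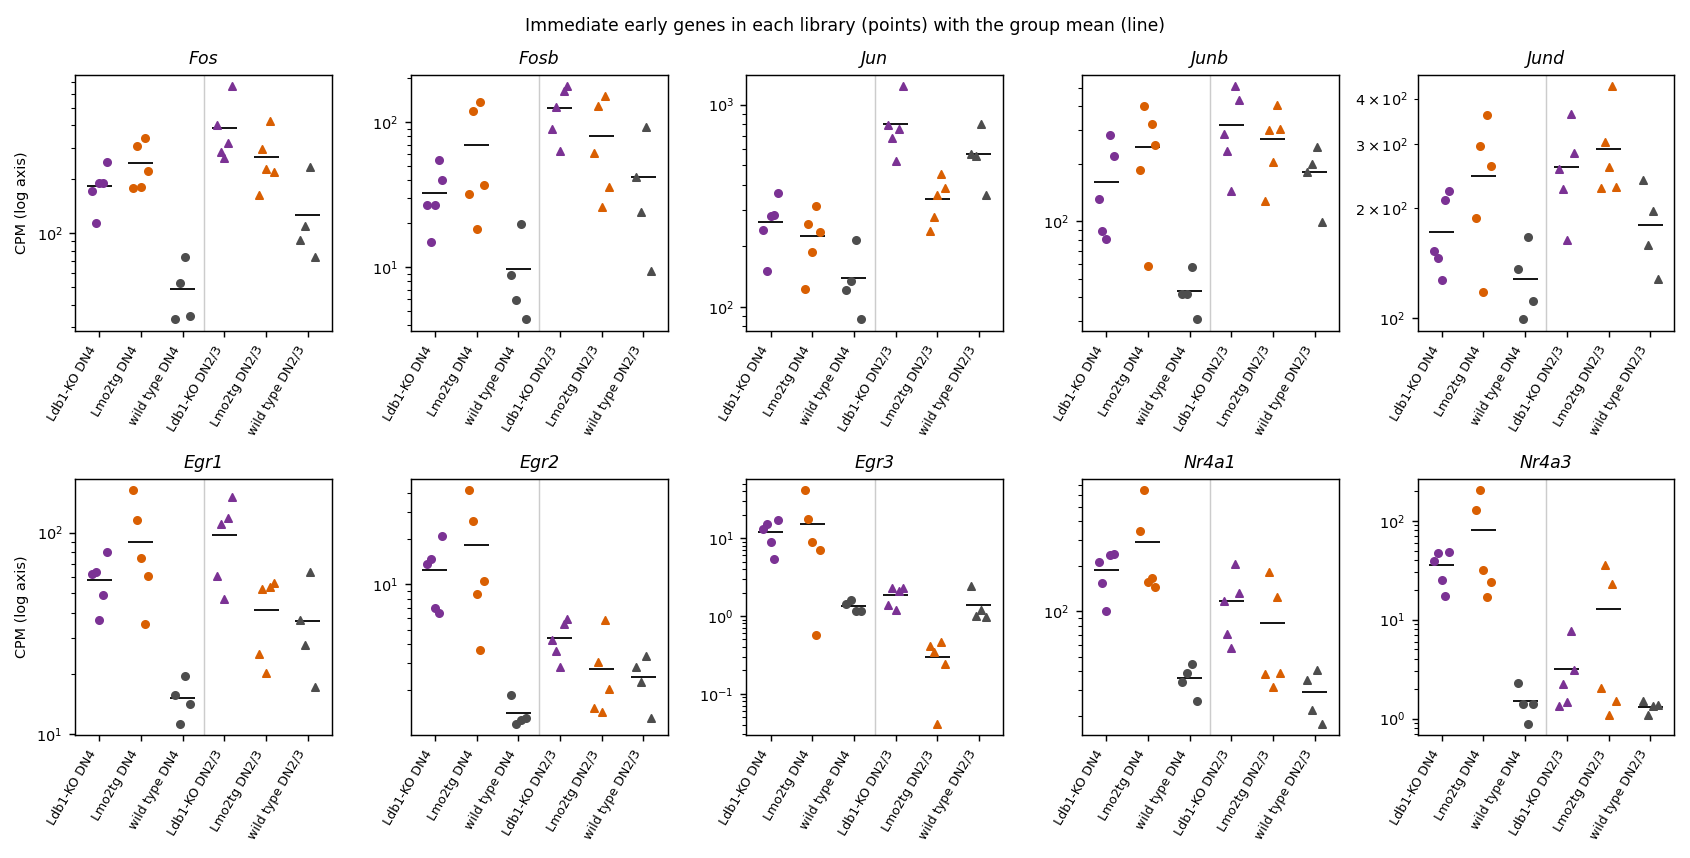
CPM of each of the 10 genes in every library (points) with a line at the group mean, on a log axis, for Ldb1-KO, Lmo2tg and wild type at DN4 and DN2/3. Nr4a3 stood between 17.2 and 48.4 CPM in the 5 Ldb1-KO DN4 libraries and between 0.888 and 2.29 CPM in the 4 wild-type DN4 libraries.

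In DN4 cells the set was higher in both transgenic groups than in wild type. In Ldb1-KO against wild type 9 of the 10 genes, all but Jund, rose and 0 fell, in a comparison where 32.6% of all tested genes changed (18.2% higher and 14.4% lower; edgeR quasi-likelihood test, adjusted p below 0.05). In Lmo2tg against wild type 9, all but Jun, rose and 0 fell, in a comparison where 52.4% of all tested genes were called (28.9% higher and 23.5% lower). The median log2 fold change over the 10 genes was 1.93 in Ldb1-KO and 2.70 in Lmo2tg, against 0.03 and 0.07 over all tested genes. Libraries did not overlap between the groups for 7 of the 10 genes in Ldb1-KO against wild type (33.1% of all tested genes) and for 6 in Lmo2tg against wild type (30.0%). Both comparisons share the 4 wild-type libraries, so they are given side by side and not as support for each other. In these bulk samples fewer cells of a type and less RNA per cell cannot be told apart.

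Among the Fos genes, Fos itself, the prototype partner of Jun in AP-1, had 173, 115, 191, 191 and 249.7 CPM in Ldb1-KO, 178, 304, 181, 340.4 and 221 CPM in Lmo2tg, against 33.1, 52.9, 74 and 34.7 CPM in wild type DN4 libraries. Every transgenic library lay above every wild-type library (log2 fold change 1.92, SE 0.36, adjusted p = 0.000472 in Ldb1-KO, and 2.33, SE 0.36, adjusted p = 1.48e-05 in Lmo2tg). Fosb, a Fos paralogue that pairs with Jun proteins in the same way, had 26.7, 15, 26.6, 54.7 and 39.9 CPM in Ldb1-KO, 32, 120.1, 18.3, 138 and 37 CPM in Lmo2tg, against 8.88, 5.91, 19.8 and 4.36 CPM in wild type. Lmo2tg replicates 2 and 4 stood above the rest, and wild-type replicate 3 at 19.8 CPM overlapped the transgenic range. Fosb rose in both (log2 fold change 1.74, SE 0.66, adjusted p = 0.0446 in Ldb1-KO, and 2.83, SE 0.69, adjusted p = 0.00153 in Lmo2tg). Its Ldb1-KO call was not held without wild-type replicate 1, 2 or 4 (adjusted p = 0.097, 0.11 and 0.126, edgeR) or without Ldb1-KO replicate 1, 3, 4 or 5 (0.0572, 0.0578, 0.0911 and 0.0763). Without wild-type replicate 3 its log2 fold changes were 2.34 in Ldb1-KO and 3.43 in Lmo2tg.

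Of the Jun genes, Junb moved most. Junb, an AP-1 subunit that often restrains Jun, had 132, 89.2, 80.5, 285 and 219.6 CPM in Ldb1-KO, 186, 403, 58.6, 325 and 250.4 CPM in Lmo2tg, against 41.6, 41.8, 57.9 and 30.6 CPM in wild type DN4 libraries. Each transgenic library was above all wild-type libraries, the closest being Lmo2tg replicate 3 at 58.6 CPM against wild-type replicate 3 at 57.9 CPM (log2 fold change 1.91, SE 0.47, adjusted p = 0.00427 in Ldb1-KO, and 2.51, SE 0.48, adjusted p = 0.000155 in Lmo2tg). Junb overlaps Prdx2 on the opposite strand, and the sources used here do not say whether reads were counted by strand. Jun, the main DNA-binding partner of Fos, had 238, 149.9, 281, 284 and 364 CPM in Ldb1-KO, 123, 257, 187, 316 and 234 CPM in Lmo2tg, against 121, 133, 215 and 86.6 CPM in wild type. Wild-type replicate 3, at 215 CPM, lay within both transgenic ranges, and Lmo2tg replicate 1, at 123 CPM, lay below wild-type replicate 2 as well. Jun rose in Ldb1-KO (log2 fold change 0.92, SE 0.30, adjusted p = 0.0216), and in Lmo2tg it just missed the threshold (log2 fold change 0.69, SE 0.30, adjusted p = 0.0548). The Ldb1-KO call was not held without wild-type replicate 1 or 4 (adjusted p = 0.0631 and 0.0823, edgeR) or Ldb1-KO replicate 5 (0.0638), while the Lmo2tg value passed without wild-type replicate 3 (0.0148) or Lmo2tg replicate 1 (0.0217) and in DESeq2 (0.0441).

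Jund, the Jun protein that is present in resting cells, had 153, 146, 127, 210.5 and 223 CPM in Ldb1-KO, 189, 297, 118, 361 and 261 CPM in Lmo2tg, against 136, 99.3, 167 and 112 CPM in wild type DN4 libraries. Its ranges overlapped. It rose in Lmo2tg (log2 fold change 0.93, SE 0.28, adjusted p = 0.00667), while in Ldb1-KO the value did not pass (log2 fold change 0.42, SE 0.27, adjusted p = 0.24). Jun and Jund each overlap an antisense transcript (Junos and Gm11175 in GENCODE M21), with the same limit on strand as for Junb.

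The Egr genes showed larger folds from lower levels. Egr1, the broadly induced Egr factor, had 62.3, 63.5, 36.8, 48.9 and 80.5 CPM in Ldb1-KO, 162, 115, 75, 35.4 and 60.9 CPM in Lmo2tg, against 15.7, 11.3, 19.4 and 14.1 CPM in wild type DN4 libraries. All 10 transgenic libraries lay above the wild-type maximum of 19.4 CPM (log2 fold change 1.95, SE 0.43, adjusted p = 0.0021 in Ldb1-KO, and 2.57, SE 0.44, adjusted p = 4.92e-05 in Lmo2tg). Egr2, which in thymocytes acts after pre-T-cell-receptor signalling and in selection, had 13.5, 14.7, 6.92, 6.49 and 20.8 CPM in Ldb1-KO, 41.5, 26, 8.64, 3.69 and 10.6 CPM in Lmo2tg, against 1.85, 1.2, 1.27 and 1.32 CPM in wild type. Again no transgenic library reached down to the wild-type range, although Lmo2tg replicate 4 at 3.69 CPM came closest (log2 fold change 3.15, SE 0.56, adjusted p = 0.000314 in Ldb1-KO, and 3.68, SE 0.57, adjusted p = 1.56e-05 in Lmo2tg). Egr3, a close relative of Egr2 with a role in proliferation after the pre-T-cell receptor, had 13.2, 15.2, 8.88, 5.42 and 17.3 CPM in Ldb1-KO, 41.1, 17.5, 8.82, 0.574 and 7.08 CPM in Lmo2tg, against 1.41, 1.6, 1.14 and 1.15 CPM in wild type. Lmo2tg replicate 4, with 24 Egr3 counts, lay below all wild-type libraries, and the other 9 transgenic libraries lay above them. Egr3 rose in both (log2 fold change 3.18, SE 0.69, adjusted p = 0.00176 in Ldb1-KO, and 3.50, SE 0.70, adjusted p = 0.000233 in Lmo2tg). Without Lmo2tg replicate 1, whose Egr3 level was highest, the log2 fold change in Lmo2tg was 2.68.

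The Nr4a genes did not overlap between the transgenic groups and wild type in DN4 cells. Nr4a1 (Nur77), whose level is widely used as a readout of T-cell-receptor signalling, had 215, 155, 100.4, 237 and 243 CPM in Ldb1-KO, 347, 642, 157, 167 and 146 CPM in Lmo2tg, against 33.8, 39.1, 44.8 and 25.3 CPM in wild type DN4 libraries. The lowest transgenic library had 100.4 CPM and the highest wild-type library 44.8 CPM (log2 fold change 2.41, SE 0.53, adjusted p = 0.00212 in Ldb1-KO, and 3.03, SE 0.55, adjusted p = 8.89e-05 in Lmo2tg). Nr4a3, a nuclear receptor of the same family with overlapping targets, had 39.1, 47.4, 24.9, 17.2 and 48.4 CPM in Ldb1-KO, 127, 202, 31.7, 17.1 and 23.8 CPM in Lmo2tg, against 2.29, 1.4, 0.888 and 1.39 CPM in wild type. No library overlapped, and the folds were the largest of the set (log2 fold change 4.57, SE 0.96, adjusted p = 0.00139 in Ldb1-KO, and 5.75, SE 1.01, adjusted p = 6.55e-05 in Lmo2tg). In linear terms Nr4a3 was 23.7-fold higher in Ldb1-KO and 53.8-fold higher in Lmo2tg than in wild type. Without Lmo2tg replicate 2, at 202 CPM, the Lmo2tg log2 fold change of Nr4a3 was 5.07.

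Deletion of Ldb1 made no called difference to the set in DN4 cells. In Ldb1-KO against Lmo2tg 0 of the 10 genes changed in edgeR, where 14.6% of all tested genes were called (5.85% higher and 8.71% lower). At an unadjusted p below 0.05 the count was also 0, and DESeq2 called 0. The lowest adjusted p was 0.198, and 9 of the 10 estimates were lower in Ldb1-KO, with a median log2 fold change of -0.57 against -0.02 over all tested genes. The groups overlapped for all 10 genes, as the count of genes without overlap was 0 (7.13% of all tested genes). The estimates ran from -1.18 (SE 0.75) for Nr4a3 to 0.24 (SE 0.28) for Jun. A p that misses the threshold does not show that the groups are alike, and the spread among Lmo2tg libraries was wide (Nr4a3 averaged 35.4 ± 13.8 CPM in Ldb1-KO and 80.4 ± 81.6 CPM in Lmo2tg; SD, n = 5 each).

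**Figure D2:**
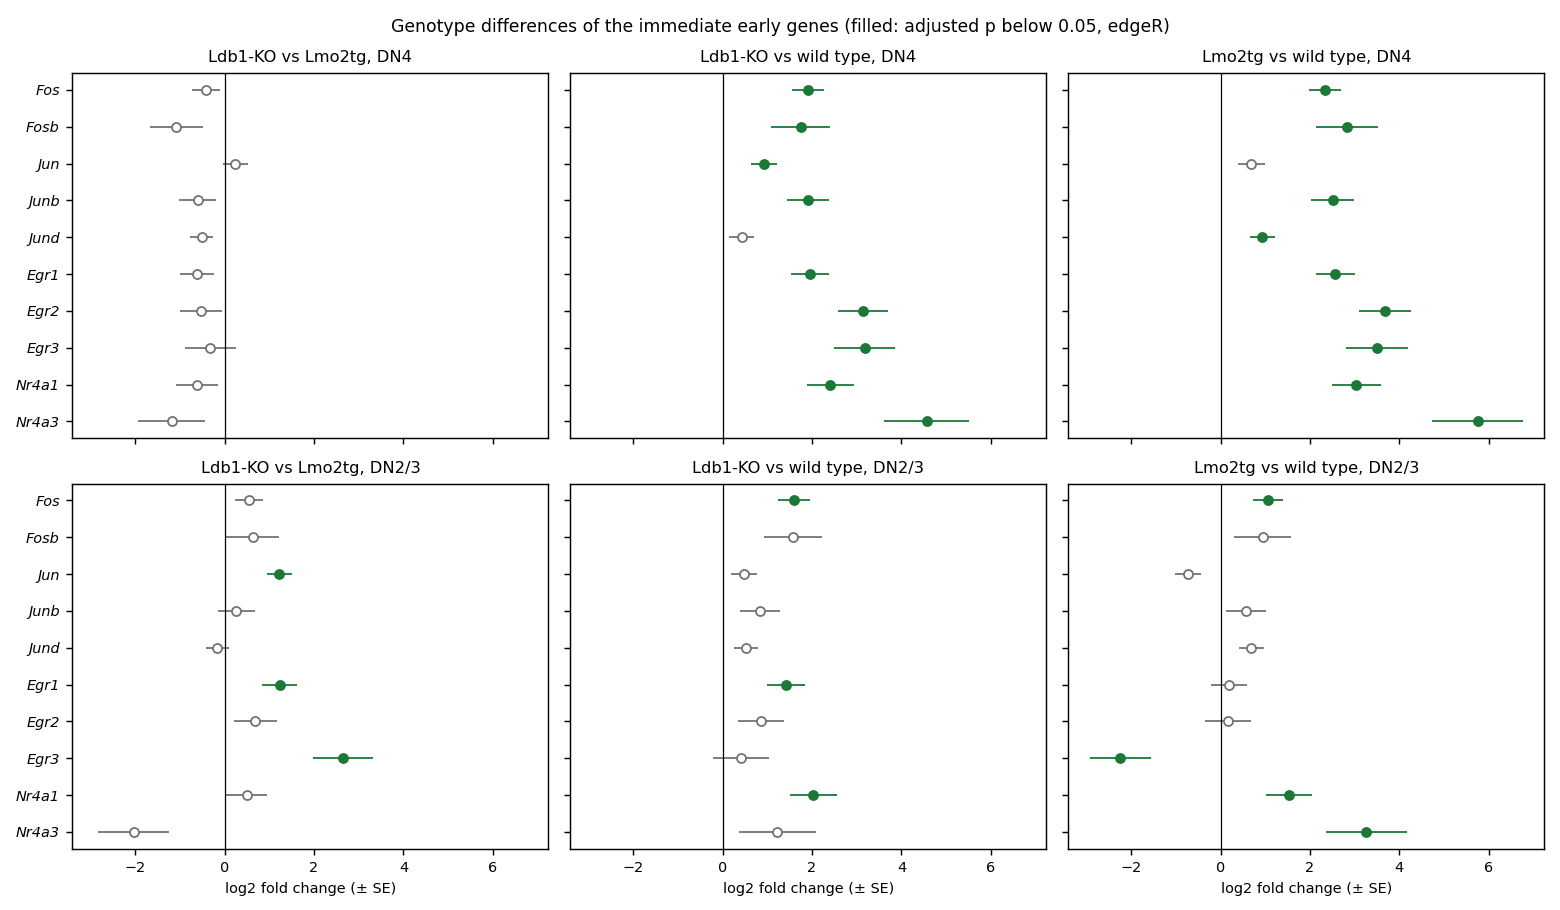
Log2 fold changes with SE (edgeR) of the 10 genes between genotypes at DN4 and at DN2/3, with filled markers where the adjusted p is below 0.05. At DN4 the values against wild type were above 0 for all 10 genes, and no Ldb1-KO against Lmo2tg value passed.

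In DN2/3 cells fewer genes moved, and the genotypes differed gene by gene. In Ldb1-KO against Lmo2tg 3 of the 10 rose and 0 fell, where 16.1% of all tested genes were called (8.87% higher and 7.22% lower). In Ldb1-KO against wild type 3 rose and 0 fell, where 9.56% changed (6.98% higher and 2.58% lower). In Lmo2tg against wild type 3 rose and 1 fell, where 29.5% changed (15.1% higher and 14.4% lower). Genes without overlapping libraries numbered 2, 2 and 1 in these comparisons, against 12.7%, 21.3% and 28.4% of all tested genes. The median log2 fold change of the 10 genes was 0.58, 1.04 and 0.63, against -0.01, -0.01 and 0.01 over all tested genes. The 3 comparisons share libraries with each other.

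Jun had 793, 680.0, 529, 755 and 1234 CPM in Ldb1-KO, 237, 279, 359, 455 and 385 CPM in Lmo2tg, against 572, 554, 802 and 358 CPM in wild type DN2/3 libraries. All 5 Ldb1-KO libraries stood above all 5 Lmo2tg libraries, and wild type lay between with overlap on both sides. Jun rose in Ldb1-KO against Lmo2tg (log2 fold change 1.22, SE 0.28, adjusted p = 0.00287), while neither group passed against wild type (0.48 in Ldb1-KO, adjusted p = 0.312, and -0.74 in Lmo2tg, adjusted p = 0.0586) in edgeR. In DESeq2 Jun passed as lower in Lmo2tg (adjusted p = 0.0439). Fos had 403, 283, 262, 317 and 659 CPM in Ldb1-KO, 164, 294, 227, 422 and 221 CPM in Lmo2tg, against 91.9, 109, 234 and 73.3 CPM in wild type. Ldb1-KO libraries were above the wild-type ones without overlap, and wild-type replicate 3 at 234 CPM reached into the Lmo2tg range. Fos rose in both (log2 fold change 1.60, SE 0.35, adjusted p = 0.00385 in Ldb1-KO, and 1.06, SE 0.34, adjusted p = 0.0206 in Lmo2tg). The Lmo2tg call was not held without wild-type replicate 1, 2 or 4 (adjusted p = 0.0741, 0.0622 and 0.0853, edgeR) or Lmo2tg replicate 4 (0.0736).

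Egr1 had 60.7, 111, 46.6, 118 and 150.3 CPM in Ldb1-KO, 25.1, 52.3, 20.1, 54 and 56.2 CPM in Lmo2tg, against 37.1, 27.6, 63.9 and 17.1 CPM in wild type DN2/3 libraries. The ranges overlapped, with Ldb1-KO replicates 2, 4 and 5 above every other library. Egr1 rose in Ldb1-KO against Lmo2tg (log2 fold change 1.23, SE 0.39, adjusted p = 0.029) and against wild type (log2 fold change 1.42, SE 0.42, adjusted p = 0.0315). Neither call was firm. Against Lmo2tg it was not held without Lmo2tg replicate 1 or 3 or Ldb1-KO replicate 2, 4 or 5 (adjusted p between 0.0564 and 0.0988, edgeR). Against wild type it was not held without wild-type replicate 1, 2 or 4 or Ldb1-KO replicate 2, 4 or 5 (adjusted p between 0.0535 and 0.114). Egr3 had 1.4, 2.3, 1.21, 2.07 and 2.3 CPM in Ldb1-KO, 0.408, 0.346, 0.0412, 0.46 and 0.241 CPM in Lmo2tg, against 2.46, 0.997, 1.18 and 0.965 CPM in wild type. The 5 Lmo2tg libraries, with 3 to 31 Egr3 counts each, lay below all others, and Ldb1-KO and wild type overlapped. Egr3 fell in Lmo2tg against wild type (log2 fold change -2.25, SE 0.68, adjusted p = 0.0135) and rose in Ldb1-KO against Lmo2tg (log2 fold change 2.65, SE 0.67, adjusted p = 0.00602). Its call against wild type was not held without wild-type replicate 1 (adjusted p = 0.0616), the highest library. Egr2 had 4.29, 3.64, 2.84, 5.47 and 5.93 CPM in Ldb1-KO, 1.51, 3.08, 1.44, 5.78 and 2.05 CPM in Lmo2tg, against 2.84, 2.26, 3.38 and 1.31 CPM in wild type, with overlap and no call in any pair.

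Nr4a1 had 117, 71, 56.9, 207 and 134 CPM in Ldb1-KO, 38, 184, 31.5, 125 and 38.6 CPM in Lmo2tg, against 34.7, 21.9, 40.9 and 17.8 CPM in wild type DN2/3 libraries. Ldb1-KO and wild type did not overlap, and in Lmo2tg only replicates 2 and 4 stood above the wild-type range. Nr4a1 rose in Ldb1-KO (log2 fold change 2.02, SE 0.52, adjusted p = 0.0141) and in Lmo2tg (log2 fold change 1.53, SE 0.51, adjusted p = 0.0252) against wild type. The Ldb1-KO call was not held without wild-type replicate 2 or 4 (adjusted p = 0.0523 and 0.059, edgeR). The Lmo2tg call was not held without wild-type replicate 2 or 4 (0.0754 and 0.0836) or Lmo2tg replicate 4 (0.062), and without Lmo2tg replicate 2 the log2 fold change was 1.01 (0.135). Nr4a3 had 1.33, 2.22, 1.48, 7.63 and 3.12 CPM in Ldb1-KO, 2.05, 35.9, 1.09, 23 and 1.5 CPM in Lmo2tg, against 1.51, 1.08, 1.34 and 1.36 CPM in wild type. The same Lmo2tg replicates 2 and 4 stood apart, while replicate 1, at 2.05 CPM, lay just above the wild-type range and replicates 3 and 5 lay within it. Nr4a3 rose in Lmo2tg against wild type (log2 fold change 3.26, SE 0.91, adjusted p = 0.0074), with a log2 fold change of 2.35 without Lmo2tg replicate 2. In Ldb1-KO against Lmo2tg it passed as lower without Lmo2tg replicate 1, 3 or 5 (adjusted p = 0.046, 0.0395 and 0.0451) or Ldb1-KO replicate 4 (0.0338), and not with all libraries (0.0821). Without wild-type replicate 2 the count of called genes was 2 in Lmo2tg and 1 in Ldb1-KO against wild type, and without wild-type replicate 4 it was 1 in Ldb1-KO. In edgeR with all libraries Fosb, Junb and Jund passed in no DN2/3 pair. In Lmo2tg against wild type, Jund passed as higher in DESeq2 (log2 fold change 0.69, adjusted p = 0.0437), in edgeR with the compared groups alone (0.0384) and without wild-type replicate 1 (0.0383) or Lmo2tg replicate 1 or 5 (0.0475 and 0.0485), and Jun as lower with the compared groups alone (0.0362) and without wild-type replicate 4 (0.0295) or Lmo2tg replicate 4 (0.0401). Fosb averaged 124 ± 48, 80.5 ± 56.3 and 41.9 ± 36.3 CPM in Ldb1-KO, Lmo2tg and wild type (SD, n = 5, 5 and 4), and the libraries of the 3 groups overlapped.

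Between the stages, Fos, Fosb and Jun were lower in DN4 than in DN2/3 cells of wild type and Ldb1-KO, while Egr2, Egr3 and Nr4a3 were higher in DN4 cells of both transgenic groups. In Ldb1-KO 3 genes rose and 3 fell, where 28.1% of all tested genes were called (12.3% higher and 15.8% lower). In Lmo2tg 4 rose and 0 fell, where 15.4% were called (8.32% higher and 7.04% lower). In wild type 0 rose and 5 fell, where 46.0% changed (21.1% higher and 24.8% lower). The wild-type count was thus near the share of changed genes, although all 5 were falls. Genes without overlap between stages numbered 6, 1 and 2, against 23.7%, 4.48% and 54.2% of all tested genes, so the wild-type number was below its share. Because libraries of the same genotype and replicate number deviated together across stages, a fit with each library pair as a block was also read. It gave 4 up and 5 down in Ldb1-KO (48.2% of all tested genes changed, 22.5% higher and 25.7% lower), 5 up and 1 down in Lmo2tg (38.8%, 18.6% higher and 20.1% lower), and 0 up and 6 down in wild type (62.1%, 28.6% higher and 33.5% lower). The wild-type count was near its share in the paired fit as well.

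Fos had DN4 over DN2/3 folds of 0.429, 0.405, 0.728, 0.602 and 0.379 in the 5 Ldb1-KO pairs, 1.09, 1.04, 0.796, 0.807 and 1.00 in the 5 Lmo2tg pairs and 0.36, 0.483, 0.316 and 0.473 in the 4 wild-type pairs. Every Ldb1-KO and wild-type pair was lower in DN4, and the Lmo2tg pairs lay around 1. Fos fell in Ldb1-KO (log2 fold change -1.07, SE 0.32, adjusted p = 0.0144) and in wild type (-1.39, SE 0.36, adjusted p = 0.00303), and in Lmo2tg its log2 fold change was -0.12 (adjusted p = 0.847). Jun had folds of 0.301, 0.22, 0.532, 0.377 and 0.295 in Ldb1-KO pairs, 0.517, 0.922, 0.522, 0.695 and 0.608 in Lmo2tg pairs and 0.211, 0.241, 0.268 and 0.242 in wild-type pairs. All 5 Ldb1-KO, 5 Lmo2tg and 4 wild-type pairs were lower in DN4, least so in Lmo2tg. Jun fell in Ldb1-KO (log2 fold change -1.60, SE 0.28, adjusted p = 0.000165) and in wild type (-2.04, SE 0.32, adjusted p = 2.24e-05), and in Lmo2tg it passed only in the paired fit (log2 fold change -0.65, SE 0.14, adjusted p = 0.00233).

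Fosb fell in Ldb1-KO (log2 fold change -1.93, SE 0.61, adjusted p = 0.019) and in wild type (-2.11, SE 0.69, adjusted p = 0.0144), with median pair folds of 0.296 and 0.23, against 0.913 in Lmo2tg. Junb fell in wild type (log2 fold change -2.07, SE 0.48, adjusted p = 0.00118), and in Ldb1-KO it passed in the paired fit (log2 fold change -1.04, SE 0.23, adjusted p = 0.0014), with 5 of 5 pairs lower. Without pairing, Junb passed in Ldb1-KO in DESeq2 (adjusted p = 0.0487), and in edgeR when DN2/3 replicate 3 or DN4 replicate 4 was left out (0.0398 and 0.0292). With all libraries Jund passed only in the paired fit, in Ldb1-KO (log2 fold change -0.58, SE 0.14, adjusted p = 0.00342) and in wild type (-0.48, SE 0.16, adjusted p = 0.0157), where it was not held without the wild-type pair of replicate 1 or 2 (adjusted p = 0.162 and 0.128). Unpaired, it passed in Ldb1-KO without DN2/3 replicate 3 (0.0413). Egr1 fell in wild type (log2 fold change -1.27, SE 0.44, adjusted p = 0.0197) and in Lmo2tg rose in the paired fit (log2 fold change 1.06, SE 0.37, adjusted p = 0.0334) and, unpaired, in DESeq2 (0.0204), with DESeq2 size factors in edgeR (0.0476) and without DN2/3 replicate 2 or DN4 replicate 4 or 5 (0.0438, 0.013 and 0.0372). Several calls rest on single libraries. In Ldb1-KO, Fos was not held without DN2/3 replicate 5 (adjusted p = 0.0719, edgeR) and Fosb without DN4 replicate 2 (0.0542). In wild type, Fosb was not held without DN2/3 replicate 3 (0.109) or DN4 replicate 4 (0.052), its log2 fold change was -2.70 without DN4 replicate 3, and Egr1 was not held without DN2/3 replicate 3 (0.124) or DN4 replicate 2 or 4 (0.0621 and 0.0502). The wild-type count was 3 without DN2/3 replicate 3 and also 3 without DN4 replicate 4. In the paired fit the Egr1 calls were not held without the pair of replicate 1, 2 or 3 in Lmo2tg (adjusted p between 0.0767 and 0.179) or in wild type (between 0.0766 and 0.118).

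Egr2 had DN4 over DN2/3 folds of 3.14, 4.03, 2.44, 1.19 and 3.51 in Ldb1-KO pairs, 27.4, 8.43, 5.99, 0.638 and 5.16 in Lmo2tg pairs and 0.65, 0.531, 0.375 and 1.01 in wild-type pairs. All Ldb1-KO pairs and 4 of 5 Lmo2tg pairs were higher in DN4, and Lmo2tg replicate 4 was lower. Egr2 rose in Ldb1-KO (log2 fold change 1.5, SE 0.48, adjusted p = 0.0216) and in Lmo2tg (2.72, SE 0.50, adjusted p = 0.00057), with -0.79 in wild type (adjusted p = 0.236, and 0.0351 with wild-type libraries alone in the fit). Egr3 had folds of 9.42, 6.63, 7.35, 2.62 and 7.52 in Ldb1-KO pairs and 0.572, 1.61, 0.97 and 1.2 in wild-type pairs. In the Lmo2tg pairs Egr3 was higher in DN4 in 5 of 5, with a lowest fold of 1.25 (replicate 4) and a median of 50.5, over DN2/3 levels that rest on 3 to 31 counts. Egr3 rose in Ldb1-KO (log2 fold change 2.70, SE 0.62, adjusted p = 0.00182) and in Lmo2tg (5.67, SE 0.73, adjusted p = 1.28e-05), in Lmo2tg with a log2 fold change of 4.85 without DN4 replicate 1.

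Nr4a3 had DN4 over DN2/3 folds of 29.4, 21.4, 16.9, 2.26 and 15.5 in Ldb1-KO pairs, 62, 5.63, 29.2, 0.742 and 15.8 in Lmo2tg pairs and 1.52, 1.3, 0.664 and 1.03 in wild-type pairs. Lmo2tg replicates 2 and 4 and Ldb1-KO replicate 4, which had the highest DN2/3 levels of their groups, gave the smallest transgenic folds. Nr4a3 rose in Ldb1-KO (log2 fold change 3.52, SE 0.83, adjusted p = 0.00247) and in Lmo2tg (2.66, SE 0.79, adjusted p = 0.0216), with values of 4.15 without Ldb1-KO DN2/3 replicate 4 and 3.57 without Lmo2tg DN2/3 replicate 2. Nr4a1 rose in Lmo2tg (log2 fold change 1.81, SE 0.48, adjusted p = 0.0109), and in Ldb1-KO only in the paired fit (log2 fold change 0.78, SE 0.26, adjusted p = 0.0199), a call not held without the pair of replicate 1 or 2 (adjusted p = 0.0546 and 0.0698). The Lmo2tg calls of Nr4a1 and Nr4a3 depend on DN4 replicate 2: without it the adjusted p was 0.0624 and 0.0934 (edgeR), and the Lmo2tg count was 2. Nr4a3 was also not held without Lmo2tg DN2/3 replicate 1 or 5 (0.0518 and 0.0533) or DN4 replicate 1 (0.053). In Ldb1-KO, Egr2 was not held without DN2/3 replicate 3 (0.0508) or DN4 replicate 5 (0.0641), and in the paired fit not without the pair of replicate 1, 2 or 5 (between 0.0599 and 0.0764). With Lmo2tg libraries alone in the fit the Lmo2tg count was 1, since Egr2, Nr4a1 and Nr4a3 did not pass (0.0542, 0.141 and 0.228).

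**Figure D3:**
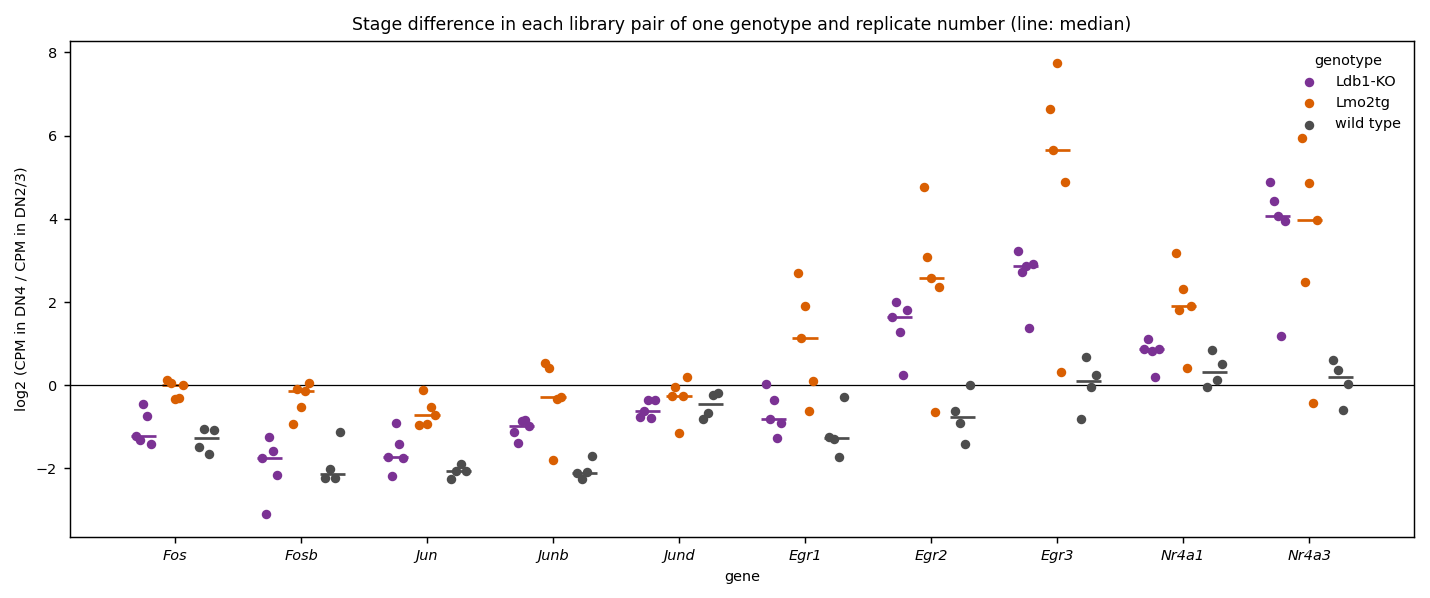
Log2 of CPM in DN4 over CPM in DN2/3 for each library pair of the same genotype and replicate number (points), with a line at the median, for the 10 genes in Ldb1-KO, Lmo2tg and wild type. Egr3 lies above 0 in all 5 Ldb1-KO and all 5 Lmo2tg pairs, and Jun lies below 0 in every pair of the 3 genotypes.

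The stage change itself differed between Lmo2tg and wild type. In Lmo2tg against wild type 5 of the 10 genes had a higher DN4 over DN2/3 change and 0 a lower one, where 25.6% of all tested genes differed (14.7% higher and 11% lower). The differences were 1.42 for Jun (SE 0.42, adjusted p = 0.0169), 1.93 for Junb (adjusted p = 0.0282), 2.38 for Egr1 (0.00659), 3.52 for Egr2 (0.0021) and 5.75 for Egr3 (0.000351), all on the log2 scale. Junb was not held without wild-type DN2/3 replicate 2 or 3 (0.0516 and 0.0599) or DN4 replicate 4 (0.0579), and Egr3 was 4.92 without Lmo2tg DN4 replicate 1. Fos passed as higher in DESeq2 (1.26, adjusted p = 0.0313) and, in edgeR, without wild-type DN2/3 replicate 1 or 4 (0.042 and 0.0366), wild-type DN4 replicate 3 (0.0353) or Lmo2tg DN2/3 replicate 4 (0.0309), and Nr4a1 and Nr4a3 without Lmo2tg DN2/3 replicate 2 (0.0375 and 0.0409). The paired fit called 9 genes, all higher and all but Jund, where 49.4% of all tested genes differed (25.8% higher and 23.7% lower). Nr4a3 among them was not held without the Lmo2tg pair of replicate 1, 3 or 5 or any of the 4 wild-type pairs (adjusted p between 0.0504 and 0.091).

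Ldb1-KO differed less clearly. In Ldb1-KO against Lmo2tg the stage change of 0 genes differed in edgeR (1.36% of all tested genes, 0.132% higher and 1.22% lower), while 4 (Fos, Jun, Egr1 and Egr3) had an unadjusted p below 0.05 and DESeq2 called 2. Without Lmo2tg DN4 replicate 4, Egr1 (adjusted p = 0.0251) and Egr3 (0.00531) passed. The paired fit called 6, all lower in Ldb1-KO, where 13.5% of all tested genes differed (6.25% higher and 7.20% lower). Fos (-0.93, SE 0.18, adjusted p = 0.00414), Fosb (-1.63, SE 0.31, adjusted p = 0.00398) and Jun (-0.95, SE 0.20, adjusted p = 0.00752), given as the difference in log2 fold change, kept this with any of the 10 pairs left out. Egr1 (-1.71, adjusted p = 0.0364), Egr3 (-2.82, 0.0299) and Nr4a1 (-1.16, 0.0483) did not. Egr1 was not held without the Ldb1-KO pair of replicate 2, 4 or 5 or the Lmo2tg pair of replicate 1, 2 or 3 (0.0667 to 0.118). Egr3 was not held without the Ldb1-KO pair of replicate 1, 2, 4 or 5 or the Lmo2tg pair of replicate 1, 2 or 3 (0.0502 to 0.101), and Nr4a1 without any Ldb1-KO pair or the Lmo2tg pair of replicate 1, 2, 3 or 5 (0.06 to 0.128).

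In Ldb1-KO against wild type the stage change of 0 genes differed in edgeR (0.216% of all tested genes, 0.181% higher and 0.0348% lower), with 3 (Egr2, Egr3 and Nr4a3) at an unadjusted p below 0.05 and 0 in DESeq2. A fit of the compared groups alone called 3, and so did the paired fit, where 19.6% of all tested genes differed (10.2% higher and 9.35% lower). In the paired fit these were Junb (1.00, SE 0.34, adjusted p = 0.0483), Egr3 (2.64, SE 0.73, adjusted p = 0.0215) and Nr4a3 (3.60, SE 1.12, adjusted p = 0.0374), given as the difference in log2 fold change. Junb was not held with any single pair left out (adjusted p between 0.0585 and 0.123). Nr4a3 was held without the Ldb1-KO pair of replicate 4 and in none of the 8 other cases (0.057 to 0.107). Egr3 was not held without the wild-type pair of replicate 1 (0.06) or 3 (0.0655).

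Within groups, libraries high in one Fos or Jun gene tended to be high in the others. Over the 28 libraries, with each gene's log2 CPM taken as the deviation from its group mean, the 10 pairs within the Fos and Jun genes had Pearson r from 0.591 to 0.875 (median 0.714). The 10 pairs within the Egr and Nr4a genes had r from 0.455 to 0.826 (median 0.691). The 25 pairs between the families had r from -0.302 to 0.665 (median 0.268), the lowest for Jun with Egr3. These values describe libraries that also share depth and cell preparation, and no p is given.

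**Figure D4:**
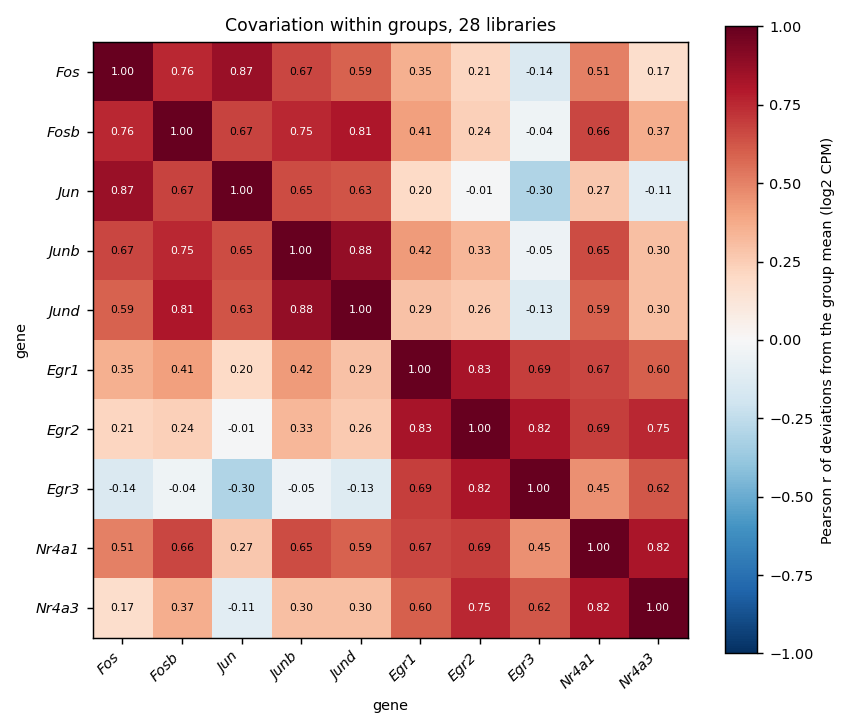
Pearson r between the 10 genes over the 28 libraries, on deviations of log2 CPM from the group mean, with Fos and Jun genes ahead of Egr and Nr4a genes. Values within the Fos and Jun genes run from 0.591 to 0.875, and between the families from -0.302 to 0.665.

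Other genes followed the same profiles. By Pearson r of log2 CPM over all 28 libraries, with group differences included, the closest were Dusp1 (0.949) and Hey1 (0.941) for Fos, Klf4 (0.939) and Ppp1r15a (0.916) for Fosb, Lif (0.88) and Sh3bp5 (0.877) for Jun, Ppp1r15a (0.946) and Ier2 (0.928) for Junb and Bambi (0.882) and Per1 (0.874) for Jund. Those nearest to Egr1 were Dusp6 (0.889) and Nfkbiz (0.883), to Egr2 Rgs16 (0.94) and Xcl1 (0.912), to Egr3 Btla (0.957) and Cd160 (0.933), to Nr4a1 Tob1 (0.924) and Spry4 (0.911), and to Nr4a3 Nfkbia (0.894) and Dusp4 (0.892). Dusp1 encodes a phosphatase that switches off MAP kinases, Ier2, Klf4 and Ppp1r15a are themselves early response genes, and Btla and Cd160 encode inhibitory receptors of T cells.

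Further immediate early and early response genes moved with the set in DN4 cells. Of the 26 tested from a list of 27, 23 rose and 0 fell in Ldb1-KO against wild type, and 24 rose and 0 fell in Lmo2tg against wild type, with medians of 1.54 and 1.92 on the log2 scale. In Ldb1-KO against Lmo2tg 0 rose and 2 fell. Of all tested genes 32.6%, 52.4% and 14.6% changed in these DN4 comparisons, in that order. Nfkbiz, an atypical IκB protein, averaged 29.4 ± 4.48 CPM in Ldb1-KO and 39.5 ± 12.6 CPM in Lmo2tg, against 6.94 ± 1.2 CPM in wild type (log2 fold change 2.08, SE 0.24, adjusted p = 7.55e-07, and 2.51, SE 0.24, adjusted p = 1.92e-08). Zfp36l1, an RNA-binding protein that promotes mRNA decay, rose in both (log2 fold change 1.61, SE 0.21, adjusted p = 7.01e-06 in Ldb1-KO, and 1.72, SE 0.21, adjusted p = 7.97e-07 in Lmo2tg). In DN2/3 cells 15 rose and 0 fell in Ldb1-KO against wild type, 12 rose and 3 fell in Lmo2tg against wild type, and 5 rose and 1 fell in Ldb1-KO against Lmo2tg. The shares over all tested genes were 9.56%, 29.5% and 16.1% there. In DN4 against DN2/3 cells 2 rose and 6 fell in Ldb1-KO, 5 rose and 3 fell in Lmo2tg, and 2 rose and 13 fell in wild type. Between these stages 28.1%, 15.4% and 46.0% of all tested genes changed, and the Ldb1-KO count was near its share. Socs3, an inhibitor of cytokine signalling, was lower in DN4 cells of every genotype (log2 fold change -1.54, SE 0.21, adjusted p = 5.3e-06 in Ldb1-KO, -1.09, SE 0.20, adjusted p = 0.000648 in Lmo2tg, and -3.25, SE 0.24, adjusted p = 7.92e-10 in wild type).

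Relatives and feedback genes of the set were counted in the DN4 comparisons with wild type, in which 32.6% and 52.4% of all tested genes changed in Ldb1-KO and Lmo2tg. Of the 4 Egr and Nr4a relatives and corepressors 3 rose and 0 fell against wild type in Ldb1-KO, and likewise 3 and 0 in Lmo2tg. Nr4a2, the remaining Nr4a receptor, averaged 27.4 ± 8.8 and 31.9 ± 17.2 CPM in Ldb1-KO and Lmo2tg, against 4.63 ± 0.798 CPM in wild type (log2 fold change 2.56, SE 0.46, adjusted p = 0.000333, and 2.79, SE 0.46, adjusted p = 3.41e-05). Nab2, a corepressor that binds Egr proteins, rose in both as well (log2 fold change 1.68, SE 0.40, adjusted p = 0.00385, and 1.75, SE 0.41, adjusted p = 0.000995). Of the 10 MAP kinase phosphatase and Sprouty genes 6 rose and 0 fell against wild type in each transgenic group. Dusp1 rose by a log2 fold change of 1.86, SE 0.32, adjusted p = 0.000182 in Ldb1-KO and 2.37, SE 0.32, adjusted p = 2.72e-06 in Lmo2tg. Of the 11 other AP-1 and bZIP genes tested from 12, 3 rose and 1 fell in Ldb1-KO, and 5 rose and 1 fell in Lmo2tg, shares near those over all tested genes.

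Genes downstream and upstream of the receptor were counted in the same DN4 comparisons, with the same 32.6% and 52.4% of all tested genes as background. Of the 11 T-cell-receptor and calcium response genes tested from 12, 8 rose and 1 fell against wild type in each transgenic group. Cd69, an early activation marker, averaged 43.3 ± 6.86 and 98.1 ± 55.6 CPM in Ldb1-KO and Lmo2tg, against 4.29 ± 0.869 CPM in wild type (log2 fold change 3.34, SE 0.39, adjusted p = 7.96e-07, and 4.52, SE 0.41, adjusted p = 5.18e-09). Of the 19 receptor signalling and ERK cascade genes 4 rose and 1 fell in Ldb1-KO, and 6 rose and 3 fell in Lmo2tg, both below the share over all tested genes. Rasgrp1, the exchange factor that activates Ras after the receptor, rose in both (log2 fold change 1.08, SE 0.18, adjusted p = 0.000182, and 1.53, SE 0.19, adjusted p = 5.6e-07). Of 11 transcription factors that act on immediate early promoters 4 rose and 0 fell in Ldb1-KO, and 6 rose and 0 fell in Lmo2tg, near the share over all tested genes. Single members named from these lists were picked among their changed genes of smallest p, and they do not stand for the lists. Crem, a CREB relative that binds the cyclic AMP response element, rose in both (log2 fold change 1.00, SE 0.24, adjusted p = 0.00369, and 1.60, SE 0.24, adjusted p = 1.1e-05). Elk3, a partner of serum response factor, also rose (log2 fold change 1.5, SE 0.26, adjusted p = 0.00026, and 1.69, SE 0.26, adjusted p = 1.53e-05).

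Markers of other cells and of stress were read in the same DN4 comparisons, where 32.6% and 52.4% of all tested genes changed in Ldb1-KO and Lmo2tg. The 9 mature T-cell markers summed to 693 to 1357 CPM in Ldb1-KO and 748 to 2114 CPM in Lmo2tg libraries, against 226 to 339.5 CPM in wild type, and 6 of 9 rose in Ldb1-KO and 8 of 9 in Lmo2tg with 0 falling. The 7 B-cell markers summed to 13.5 to 22.2, 12.4 to 97.2 and 11.1 to 14.7 CPM in Ldb1-KO, Lmo2tg and wild type, with 4 and 7 of 7 rising, and Pax5 was at 0 in all wild-type libraries. The highest B-cell sum was in Lmo2tg replicate 1, which also had the highest Egr2 and Egr3 levels. Its mature T-cell, double-positive and myeloid sums (2114, 3778 and 12.5 CPM) were likewise the highest among Lmo2tg DN4 libraries. Its NK and innate lymphoid sum, 238 CPM, was the lowest of them. Lmo2tg replicate 4, lowest in Egr2 and Egr3, had the lowest mature T-cell sum, 748 CPM. Without replicate 1, 10 genes rose in Lmo2tg against wild type at DN4, and the Lmo2tg stage count was 3. The 9 myeloid markers reached at most 12.5 CPM in any DN4 library, with Elane at 0 in all of them. Of the 7 myeloid markers tested 3 rose in Ldb1-KO and 5 in Lmo2tg. Erythroid markers summed to 4.56 to 28.4 and 4.04 to 19.4 CPM in Ldb1-KO and Lmo2tg, against 0.872 to 1.25 CPM in wild type, with Hbb-bs at 0 in all DN4 libraries. Gamma-delta T markers summed to 70.7 to 1529, 136 to 532 and 98.9 to 225 CPM, and double-positive thymocyte markers to 2445 to 3923, 2323 to 3778 and 2448 to 2558 CPM, in Ldb1-KO, Lmo2tg and wild type. The 8 double-negative thymocyte markers summed to 3622 to 4180.1 and 2901 to 3995 CPM in Ldb1-KO and Lmo2tg, all below the 4319 to 4727 CPM of wild type, while 1 of 8 rose and 0 fell in Ldb1-KO and 2 rose and 2 fell in Lmo2tg. The NK and innate lymphoid markers summed to 185 to 368, 238 to 479 and 370.3 to 516 CPM in Ldb1-KO, Lmo2tg and wild type, with no overlap between Ldb1-KO and wild type. Gene by gene, 2 of the 7 tested rose and 1 fell in Ldb1-KO, and 3 rose and 2 fell in Lmo2tg. Against these lower sums, the median log2 fold changes from wild type were 0.86 and 1.53. The 11 heat shock genes summed to 6924 to 11068, 6133 to 11776 and 5753 to 9444 CPM in Ldb1-KO, Lmo2tg and wild type DN4 libraries, with overlap between all groups. Of them 3 rose and 1 fell in Ldb1-KO and 5 rose and 1 fell in Lmo2tg against wild type, near the 32.6% and 52.4% of all tested genes, with Hspa1b among the rising (log2 fold change 1.56, SE 0.44, adjusted p = 0.0102, and 1.67, SE 0.44, adjusted p = 0.00292). The part of these markers in the DN4 results was not tested.

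At DN2/3 the mature T-cell sum was 948 to 1456, 1062 to 1585 and 757 to 1012 CPM and the heat shock sum 7827 to 14306, 7859.8 to 13351 and 4839 to 7423 CPM in Ldb1-KO, Lmo2tg and wild type. The heat shock sums and, for Lmo2tg, the mature T-cell sums lay above those of wild type without overlap. Gene by gene, 2 of the 11 heat shock genes rose and 0 fell in each transgenic group against wild type. Of the 9 mature T-cell markers 4 rose and 0 fell in Ldb1-KO, and 2 rose and 1 fell in Lmo2tg. Over all tested genes 9.56% changed in Ldb1-KO and 29.5% in Lmo2tg against wild type at DN2/3, the background for all marker counts here. Gamma-delta T markers summed to 290.1 to 1543, 194 to 405 and 193 to 206 CPM in Ldb1-KO, Lmo2tg and wild type, higher in Ldb1-KO than in wild type without overlap. The highest sum was in Ldb1-KO replicate 4, which also had the highest Nr4a1 and Nr4a3 of its group at DN2/3. At DN4 the same replicate had the highest gamma-delta sum, 1529 CPM, and the lowest Nr4a3 of its group, 17.2 CPM. Double-negative thymocyte markers summed to 4863 to 6567 and 4388 to 4900.1 CPM in Ldb1-KO and Lmo2tg, all below the 6973 to 7171 CPM of wild type, and 2 of the 8 fell in Ldb1-KO and 5 in Lmo2tg with 0 rising. B-cell markers summed to 28.9 to 35.7, 13.4 to 29.7 and 40.3 to 43.6 CPM in Ldb1-KO, Lmo2tg and wild type, lower without overlap in both transgenic groups, although gene by gene 0 of 7 rose or fell in Ldb1-KO, 1 fell in Lmo2tg, and the median log2 fold changes were 1.08 and 0.66. Double-positive thymocyte markers summed to 2462 to 3229.7, 2657 to 3485 and 3309.6 to 3859 CPM in Ldb1-KO, Lmo2tg and wild type. The Ldb1-KO sums were lower than wild type without overlap, although gene by gene 4 of 8 rose and 2 fell (median log2 fold change 0.75). Myeloid markers summed to 23.4 to 35.5, 4.86 to 14.6 and 18.9 to 25.9 CPM in Ldb1-KO, Lmo2tg and wild type. Their sums were lower than wild type without overlap in Lmo2tg, where 3 of 7 rose and 1 fell. In Ldb1-KO, whose sums overlapped those of wild type, 4 of 7 rose and 0 fell (median log2 fold change 1.75). The highest heat shock sums among Lmo2tg libraries were in replicate 2 at both stages, the library pair with the highest Nr4a3 at each stage. Lmo2tg replicate 4 differed in another way: at DN4 it had the lowest Egr1, Egr2 and Egr3 of its group (35.4, 3.69 and 0.574 CPM), the lowest Nr4a3 and the highest Fos, Fosb, Jun and Jund. Without it, 9 genes rose in Lmo2tg against wild type at DN4 and 5 changed between the Lmo2tg stages. The part of these markers and library differences in the results was not tested.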

How the data were processed

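RNA-seq of 28 mouse thymocyte samples gave raw counts per gene symbol, which the authors deposited as whole numbers for 24421 symbols. Per the labels' protocols, a TruSeq V2 kit was used, with paired-end reads of 101 bases. The submitters' processing notes name mm10, STAR 2.5.2a and featureCounts 1.4.6-p3. The sources used here do not give the annotation, strand setting or handling of reads with several matches, so reads of genes that overlap on opposite strands may be counted for either.

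The counts of all 28 samples, as 6 groups, entered 1 model in edgeR 4.0.16 (R 4.3.3; TMM, filterByExpr by group, robust two-sided quasi-likelihood F-test), with Benjamini-Hochberg adjustment across the 14371 genes that passed. Genes count as changed where the adjusted p is below 0.05. There are 12 contrasts: 3 genotype pairs at each stage, DN4 against DN2/3 in 3 genotypes and 3 differences of stage changes. Levels are CPM with TMM-scaled library sizes. Positions, exon lengths and overlaps are from GENCODE M21 and promoters from RefSeq. DN2/3 and DN4 libraries of the same genotype and number deviated together from their group means (Pearson r from 0.153 to 0.65 in the 14 pairs, highest between other numbers 0.136), so the numbers pair the stages within a genotype, and the paired fit holds each pair as a block. No replicates were copies: chi-square over degrees of freedom was 28.5 or more for every replicate pair. The fit was tested on simulated data. Alternatives were DESeq2 1.42.0, its size factors in edgeR, no filter, the compared groups alone, a block of replicate number, and leaving out each library. The paired fit and its left-out pairs were added after seeing the data.

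The genes and lists were chosen with earlier results of these data known. Named were the 10 genes, up to 2 changed genes of smallest p per list and contrast with at least 1 CPM in the higher group, of which some are given, the 2 genes of highest correlation with each of the 10 (mean of at least 1 CPM, prior count 2), markers that moved with a result, and Lmo2 and Ldb1.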

Additional observations from a re-analysis of the deposited data

Results flagged for a closer look

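In wild-type DN2/3 cells Egr3 of replicate 1, at 2.46 CPM, stood apart from the next library at 1.18 CPM. In Ldb1-KO DN2/3 cells Nr4a3 of replicate 4, at 7.63 CPM, stood apart from the next at 3.12 CPM. These 2 came from 60 groups of 4 or 5 libraries examined for a lone high or low value, and chance gives about 1 in 20.

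The change between DN4 and DN2/3 differed between Lmo2tg and wild type by the test of the difference itself (edgeR, log2 scale) for 5 genes: 1.42 for Jun (adjusted p = 0.0169), 1.93 for Junb (0.0282), 2.38 for Egr1 (0.00659), 3.52 for Egr2 (0.0021) and 5.75 for Egr3 (0.000351). For each, the change was higher in Lmo2tg than in wild type.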

How the results depend on the processing

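Of the DN4 comparisons with wild type, 9 genes changed in each with all libraries, 9 to 10 in Lmo2tg and 7 to 9 in Ldb1-KO with 1 library left out. With 1 library left out the other counts ran 0 to 0 in Ldb1-KO against Lmo2tg at DN4, 2 to 4 at DN2/3, 2 to 5 in Lmo2tg and 1 to 3 in Ldb1-KO against wild type at DN2/3. They ran 5 to 7, 2 to 5 and 3 to 5 between stages in Ldb1-KO, Lmo2tg and wild type, 4 to 7 for the stage difference in Lmo2tg against wild type, 0 to 2 in Ldb1-KO against Lmo2tg and 0 to 0 in Ldb1-KO against wild type. Called values that lost or gained the threshold this way are named beside their results. DESeq2 called 2 genes in the stage difference of Ldb1-KO against Lmo2tg (Egr1 and Egr3) against 0, and the compared groups alone gave 1 between Lmo2tg stages against 4 and 3 in the stage difference of Ldb1-KO against wild type against 0. No other change of tool, scaling or filter moved a count past 1.5 times. Without the filter Fosb in Ldb1-KO against wild type at DN4 did not pass (adjusted p = 0.0702, edgeR), and with the compared groups alone neither did Nr4a1 in Lmo2tg against wild type at DN2/3 (0.0545) or Fosb between wild-type stages (0.0605). The cause was not tested.

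The paired fit, with a replicate block within genotype, called 9, 6 and 3 genes in the stage difference of Lmo2tg from wild type, of Ldb1-KO from Lmo2tg and of Ldb1-KO from wild type, where the unpaired fit called 5, 0 and 0. With a pair left out the Ldb1-KO from Lmo2tg count was 3 without the Ldb1-KO pair of replicate 2, 4 or 5 or the Lmo2tg pair of replicate 1 or 2, and the Ldb1-KO from wild type count was 1 without the Ldb1-KO pair of replicate 1, 2, 3 or 5 or the wild-type pair of replicate 2 or 4, and 0 without that of replicate 1 or 3. Between same-numbered libraries of Ldb1-KO and Lmo2tg r ran from 0.0286 to 0.199 at DN2/3 and from -0.0753 to 0.338 at DN4, and with wild type from -0.179 to 0.0966. Not every pair exceeded 0.1, so the replicate block across genotypes was taken to rest on a shared number. It gave 6 genes against 5 in the stage difference of Lmo2tg against wild type, 2 against 3 in Ldb1-KO against wild type at DN2/3 and 8 against 9 at DN4.

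Estimates that changed sign were all uncalled. Egr3 between wild-type stages (-0.07 on the log2 scale) was 0.0093 with the replicate block across genotypes and 0.0081 within genotype, and Fosb in the stage difference of Ldb1-KO against wild type was -0.0383 within genotype. With 1 library left out, the log2 values ran from -0.22 to 0.34 for Egr3 and from -0.0801 to 0.37 for Nr4a3 between wild-type stages. Between Lmo2tg stages they ran from -0.26 to 0.11 for Fos, from -0.63 to 0.14 for Fosb and from -0.39 to 0.11 for Junb. In Lmo2tg against wild type at DN2/3 they ran from -0.048 to 0.61 for Egr1 and from -0.27 to 0.37 for Egr2. In Ldb1-KO against Lmo2tg they ran from -0.80 to 0.0274 for Egr2 and from -0.63 to 0.50 for Egr3 at DN4, and from -0.32 to 0.0228 for Jund at DN2/3. In the stage difference of Ldb1-KO against wild type they ran from -0.16 to 0.60 for Fos, from -0.57 to 0.77 for Fosb and from -0.26 to 0.0541 for Jund, and against Lmo2tg from -0.0586 to 1.53 for Nr4a3. Egr3 in Lmo2tg DN2/3 cells rests on 3 to 31 counts a library, so its folds rest on few reads.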
